A study of Mus musculus with 6 samples.

Results

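The unfolded protein and integrated stress responses were followed through 37 listed genes in AML12 cells, an immortalised mouse hepatocyte line that came from mice carrying a human transforming growth factor alpha transgene. The cells had been transfected with a construct that carries the open reading frame of Zac1, the zinc finger protein encoded by Plagl1 (3 libraries, replicates 4, 5 and 6), or with one that carries EGFP, a green fluorescent protein (3 libraries, replicates 1, 2 and 3). RNA was taken after 24 h and polyA RNA was sequenced. The EGFP cells thus also made a foreign protein from a plasmid, and cells without a plasmid are not analysed here. All 37 genes were found by symbol among the 49585 genes of the count table, and all 37 had a mean of at least 10 reads over the 6 libraries, the minimum for a test. The labels do not state whether replicates were separate cultures, so p-values measure the spread between these libraries, which may be technical. The share of cells that took up a plasmid is not known, and in bulk RNA fewer responding cells and less RNA per cell cannot be told apart.

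Proteins that fail to fold in the endoplasmic reticulum (ER) draw the chaperone BiP, encoded by Hspa5, away from 3 membrane sensors. ATF6 is cut in the Golgi and its free end switches on ER chaperone genes. IRE1, encoded by Ern1, splices Xbp1 mRNA so that it codes for an active transcription factor, which drives genes of folding, translocation and ER-associated degradation. PERK, encoded by Eif2ak3, phosphorylates the initiation factor eIF2 alpha, which slows translation but favours that of ATF4, a transcription factor of amino acid supply and stress genes. Other kinases, which sense amino acid shortage, viral RNA or haem loss, converge on the same eIF2 step, and this wider response is the integrated stress response. Secretory cells such as hepatocytes depend on these pathways because of the load of plasma proteins they fold. Each gene was placed in 1 arm by its best known regulator: 13 in the ATF6 arm, 9 in the IRE1-XBP1 arm and 12 in the PERK-ATF4 arm, with Hspa13, Pdia3 and Canx in no arm. Many answer to more than 1 arm. Counts per gene do not show Xbp1 splicing, ATF6 cleavage or PERK phosphorylation, so what follows is the transcript side of the response.

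The arms meet different promoter elements, and the matches in the listed genes are shown because they mark which genes the shared letters link. The ER stress response element (ERSE), bound by ATF6 and XBP1 with NF-Y, was searched as CCAAT, any 9 bases and CCACG on both strands of the 250 bases before each RefSeq start. It was found in 8 of the 32 members with a promoter in the RefSeq table (GRCm38.p6), against 0.113% of all 32841 windows of that length. The members were picked as known stress genes, so the share describes the list and no test was made. The 9 sites in these 8 genes are printed as 30 bases each, 5' to 3' along the gene, with the CCAAT and CCACG blocks, or their complements on the other strand, in capitals.
Hspa5: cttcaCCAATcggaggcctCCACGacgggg
Hsp90b1 distal: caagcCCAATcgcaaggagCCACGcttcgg
Hsp90b1 proximal: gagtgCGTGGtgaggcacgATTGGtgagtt
Dnajc3: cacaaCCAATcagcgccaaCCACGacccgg
Creld2: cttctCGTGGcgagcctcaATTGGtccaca
Pdia6: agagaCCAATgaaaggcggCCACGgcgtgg
Calr: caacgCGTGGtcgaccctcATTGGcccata
Canx: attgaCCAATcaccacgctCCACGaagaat
Syvn1: cgcaaCCAATcggcggtagCCACGggaaca
Their positions and gene strands in GRCm38 are Hspa5 chr2:34772020-34772049 (plus), Hsp90b1 distal chr10:86705632-86705661 (minus), Hsp90b1 proximal chr10:86705527-86705556 (minus), Dnajc3 chr14:118937822-118937851 (plus), Creld2 chr15:88819515-88819544 (plus), Pdia6 chr12:17266486-17266515 (plus), Calr chr8:84847069-84847098 (minus), Canx chr11:50325794-50325823 (minus), Syvn1 chr19:6046527-6046556 (plus). The Hspa5 window lies in an exon of the GENCODE M21 annotation, which starts that gene further upstream than RefSeq does; no exon touches the other 8.

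Hsp90b1, which encodes the ER chaperone GRP94, was the only member with more than 1 such match, in opposite orientations. The stretch from the far end of its window to the first GENCODE M21 exon (chr10:86705510-86705694, minus strand, 185 bases) is printed to show both sites in place, with ERSE letters in capitals.
Hsp90b1 promoter: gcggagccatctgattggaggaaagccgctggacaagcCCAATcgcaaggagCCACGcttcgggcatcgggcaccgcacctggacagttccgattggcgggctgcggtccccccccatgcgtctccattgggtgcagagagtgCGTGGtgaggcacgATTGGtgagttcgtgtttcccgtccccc

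The C/EBP-ATF response element (CARE), bound by ATF4 with C/EBP partners, was searched as TGATGNAA and matched 5 members, against 3.45% of all windows. Of these, 4 belong to the PERK-ATF4 arm, which has 12 members with a window. The fifth, Herpud1, also held the only match to ERSE-II (ATTGG, any 1 base and CCACG; 0.0304% of all windows), so it had letters for both branches. The XBP1 element core TGACGTGG matched 0 of the 32, against 0.563% of all windows. No ERSE, ERSE-II, XBP1 core or CARE letters were found in the window of Dnajb9, and Atf6 has no entry in the table. The Dnajb9 window lies wholly inside the gene as GENCODE M21 places it, with a start further upstream than in RefSeq. Sequence before that GENCODE start was not searched, so the absence of letters does not cover it. The matched letters are again in capitals.
Herpud1 ERSE-II: cgggcgctgATTGGgCCACGttggacactg
Herpud1 CARE: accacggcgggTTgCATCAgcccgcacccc
Chac1 CARE: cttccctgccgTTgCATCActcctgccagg
Asns CARE: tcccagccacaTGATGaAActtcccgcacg
Nupr1 CARE: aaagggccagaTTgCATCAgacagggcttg
Vldlr CARE: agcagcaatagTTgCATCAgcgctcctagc
Positions and gene strands are Herpud1 ERSE-II chr8:94386368-94386397 (plus), Herpud1 CARE chr8:94386306-94386335 (plus), Chac1 CARE chr2:119351038-119351067 (plus), Asns CARE chr6:7693214-7693243 (minus), Nupr1 CARE chr7:126625562-126625591 (minus), Vldlr CARE chr19:27216809-27216838 (plus). The Asns, Nupr1 and Vldlr windows touch a GENCODE M21 exon. A match is a run of letters, not a measured binding site.

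The whole experiment set the scale. Library totals were 16104498 to 18302538 reads in Zac1 and 14801240 to 15145092 in EGFP. Plagl1, the transfected gene, was at 6604, 7937 and 8072 CPM (reads scaled to a common library size) in Zac1 replicates 4, 5 and 6, against 2.6, 5.31 and 4.53 CPM in EGFP replicates 1, 2 and 3. Of 12130 genes tested with edgeR's quasi-likelihood test, 459 (3.78%) passed an adjusted p of 0.05, 378 of them (3.12% of those tested) higher in Zac1 and 81 (0.668%) lower. The first principal component (58.8% of the variance) separated Zac1 from EGFP. The second (15.5%) set Zac1 replicate 4 and EGFP replicate 1 apart from the other 4 libraries, and results that rest on these libraries are given with and without them. Both were thus picked from these same data. Leaving them out takes away spread within the groups, and 1461 genes then passed. Calls and smaller p-values from that fit are a description and add no support. Of 17 hepatocyte markers, 10 could be tested. Apob was at 1271 CPM in Zac1 and 1356 in EGFP and Hnf4a at 206 and 202 CPM, but Alb was at 34.7 CPM in both groups, and Apoa2 and Cyp2e1 had no read.

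Few stress-response genes changed, and those that did were lower. Of the 37 members 3 fell and 0 rose with Zac1, beside 0.668% of all tested genes lower and 3.12% higher. The 3 were Atf6, Hspa5 and Dnajb9, which stand in the ATF6 and IRE1-XBP1 arms. Of the 12 PERK-ATF4 members 0 passed. With 3.78% of all tested genes past the test, that count does not set the arm apart. At an unadjusted p under 0.05, 8 members were lower and 1 higher, where 6.43% and 9.41% of all tested genes were. DESeq2 called 4 lower and 0 higher, where it called 0.775% and 2.75% of all genes, and voom with quality weights 5 lower and 1 higher, where it called 4.12% and 6.57%. Without Zac1 replicate 5, 1 member was lower and 0 higher, beside 0.157% and 1.55% of all genes. Without Zac1 replicate 4 and EGFP replicate 1 together 7 were lower and 1 higher, beside 4.99% and 7% of all genes. The 7 were Atf6, Hspa5, Dnajb9, Hsp90b1, Xbp1, Hspa13 and Ppp1r15a, and the 1 was Nupr1. Fold changes were small. Of the 37, 32 had a log2 fold change below 0.15 in size, and standard errors ran from 0.04 to 0.18. Of all members 29 were below 0 on the log2 scale, where 50.5% of all tested genes were, and the member median was -0.05 against -0.0016 for all tested genes. On counts left unscaled the median of all genes moved to 0.20 and the member median to 0.15, with 3 members below 0 but 29 still below the median of all genes. The groups did not overlap for 12 members with Zac1 lower and for 2 with Zac1 higher, beside 8.75% and 11.9% of all tested genes.

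**Figure D1:**
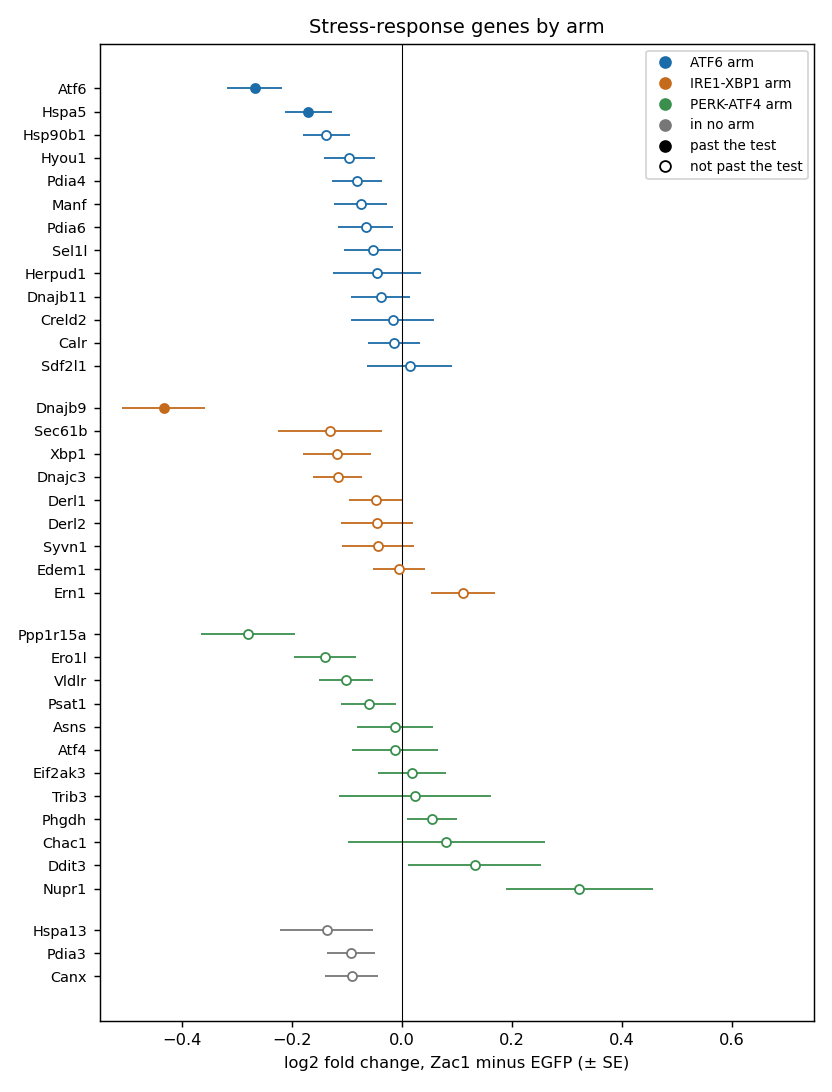
Log2 fold change of each of the 37 genes, Zac1 minus EGFP, with its standard error (bars, n = 3 libraries a group), by arm; filled points passed the edgeR test. Atf6, Hspa5 and Dnajb9 are filled, and most other points lie within 0.15 of 0. On unscaled counts all points move up by about the 0.20 by which the median of all genes moves.

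The arms are set side by side without a test between them. The 13 ATF6-arm genes had a median log2 fold change of -0.07 and ran from -0.27 (Atf6) to 0.01 (Sdf2l1), with 12 below 0, 2 past the test and 5 with all Zac1 libraries below all EGFP libraries, beside 8.75% of all tested genes. The 9 IRE1-XBP1 genes had a median of -0.05 and ran from -0.43 (Dnajb9) to 0.11 (Ern1), with 8 below 0, 1 past the test and, without overlap, 3 lower in Zac1 and 1 higher. The 12 PERK-ATF4 genes had a median of 0.0026 and ran from -0.28 (Ppp1r15a) to 0.32 (Nupr1), with 6 below 0, 0 past the test and, without overlap, 3 lower in Zac1 and 1 higher, where 11.9% of all tested genes were higher without overlap. With single libraries left out the ATF6 median lay between -0.11 (without EGFP replicate 1) and -0.04, the IRE1-XBP1 median between -0.10 (without Zac1 replicate 4) and -0.04, and the PERK-ATF4 median between -0.08 (without EGFP replicate 1) and 0.06 (without Zac1 replicate 4), so the sign of the last rested on single libraries. The medians with Zac1 replicate 4 and EGFP replicate 1 both left out were -0.08, -0.04 and 0.02 for the 3 arms in that order. On unscaled counts they were 0.14, 0.15 and 0.21, against 0.20 for all genes. The mean over the members of an arm also varied between replicates of a group. The pooled SD on the log2 scale was 0.055 for ATF6, 0.016 for IRE1-XBP1 and 0.13 for PERK-ATF4. Centred over all libraries, the ATF6 mean was -0.042 in EGFP replicate 1, against -0.027 and -0.017 in Zac1 replicates 5 and 6. The groups thus overlapped there and in the PERK-ATF4 arm, but not in the IRE1-XBP1 arm. The nearest IRE1-XBP1 means were -0.036 in Zac1 replicate 5 and 0.025 in EGFP replicate 1. They include Dnajb9, which stood at -0.18, -0.14 and -0.33 in Zac1 replicates 4, 5 and 6. In EGFP replicates 1, 2 and 3 Dnajb9 stood at 0.25, 0.09 and 0.30. How far the gap rests on that gene was not tested.

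Of the 3 sensors, Atf6 fell while Ern1 and Eif2ak3 did not pass the test. Atf6 was at 148, 140 and 145 CPM in Zac1 replicates 4, 5 and 6, against 172, 175 and 174 CPM in EGFP replicates 1, 2 and 3. All Zac1 libraries were below all EGFP libraries, by far more than the libraries of a group differed among themselves. Its mean was 144 ± 3.9 CPM in Zac1 and 174 ± 1.58 CPM in EGFP (SD, n = 3 each), a log2 fold change of -0.27 (SE 0.05, edgeR adjusted p = 0.00595). The call was lost without Zac1 replicate 5 (edgeR adjusted p = 0.0831) and held with Zac1 replicate 4 and EGFP replicate 1 both left out (-0.29, 8.97e-06). On unscaled counts it was -0.07 and did not pass, still below the 0.20 of the median gene.

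Ern1 leaned the other way. It was at 70.6, 72.1 and 68.5 CPM in the Zac1 libraries, against 64.4, 63.7 and 67.6 CPM in the EGFP libraries, with no overlap but a narrow gap. The log2 fold change was 0.11 (SE 0.06, edgeR adjusted p = 0.383). Eif2ak3 was at 63.5, 69.3 and 67.1 CPM in Zac1 and 66, 68.5 and 62.9 CPM in EGFP, overlapping throughout, with a log2 fold change of 0.02 (SE 0.06, edgeR adjusted p = 0.929). Per kilobase of exon, the sensors were among the lower members: Atf6 had 15.6 CPM per kilobase in Zac1 and 18.8 in EGFP, Eif2ak3 11.1 and 10.9, and Ern1 8.61 and 7.98.

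The ER chaperones made up the most abundant members. Per kilobase of exon Hspa5 had 764 CPM in Zac1 and 860 in EGFP, Hsp90b1 493 and 542, and Calr, a lectin chaperone of glycoproteins, 476 and 481. At the low end Derl2, a degradation channel component, had 8.67 and 8.95 CPM per kilobase in Zac1 and EGFP, and Nupr1, a small stress-induced nuclear protein, 8.67 and 6.9. Levels differed far more between members than between the groups.

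Hspa5, whose product BiP both folds clients and holds the sensors off, was lower with Zac1. Its levels were 3206, 3302 and 3182 CPM in Zac1 replicates 4, 5 and 6, against 3476, 3704 and 3729 CPM in EGFP replicates 1, 2 and 3. The groups did not overlap, and EGFP replicate 1 was the nearest to the Zac1 libraries. The log2 fold change was -0.17 (SE 0.04, edgeR adjusted p = 0.0381), with means of 3230 ± 63.5 CPM in Zac1 and 3636 ± 139 CPM in EGFP (SD, n = 3 each). This call was near the threshold. It was lost without EGFP replicate 2, EGFP replicate 3, Zac1 replicate 5 or Zac1 replicate 6 (edgeR adjusted p 0.136 to 0.182), and it held without Zac1 replicate 4 and EGFP replicate 1 together (-0.19, 6.48e-05). On unscaled counts the log2 fold change was 0.032, above 0 but below the 0.20 of the median gene.

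Hsp90b1, with the paired ERSE letters shown above, had 2047, 2009 and 1903 CPM in Zac1 and 2161, 2164 and 2231 CPM in EGFP. The groups did not overlap, but the gene did not pass over all tested genes (log2 fold change -0.14, SE 0.04, edgeR adjusted p = 0.107). It passed without Zac1 replicate 4 (-0.16, 0.0311) and without Zac1 replicate 4 and EGFP replicate 1 together (-0.16, 0.00192). Hyou1, a nucleotide exchange factor for BiP, had 635, 667 and 666 CPM in Zac1 and 674, 713 and 718 CPM in EGFP (-0.10, SE 0.05, edgeR adjusted p = 0.33). There too the groups were apart by a small margin.

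The remaining ATF6-arm genes lay closer to 0, and none passed. Pdia4 and Pdia6, disulfide isomerases, had log2 fold changes of -0.08 and -0.07, and Manf, a secreted ER protein, had -0.08 with no overlap between groups. Sel1l, the adaptor of the HRD1 degradation complex, had -0.05, Herpud1, a membrane protein of the same complex, -0.05, and Dnajb11, a BiP co-chaperone, -0.04. Creld2, a secreted folding factor, had -0.02, Calr -0.01 and Sdf2l1, which works with BiP, 0.01. The 8 genes with ERSE letters, whichever their arm, ran from -0.17 (Hspa5) to -0.01 (Calr), and 1 of the 8 passed. Of the members in no arm, Pdia3, the isomerase that acts on glycoproteins, and Canx, calnexin, both had -0.09, and Hspa13, a microsomal HSP70-type protein, -0.14; none passed. Hspa13 had -0.23 without Zac1 replicate 4 (edgeR adjusted p = 0.0562), -0.04 without Zac1 replicate 6 (0.919) and passed with Zac1 replicate 4 and EGFP replicate 1 both left out (-0.21, 0.0209).

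**Figure D2:**
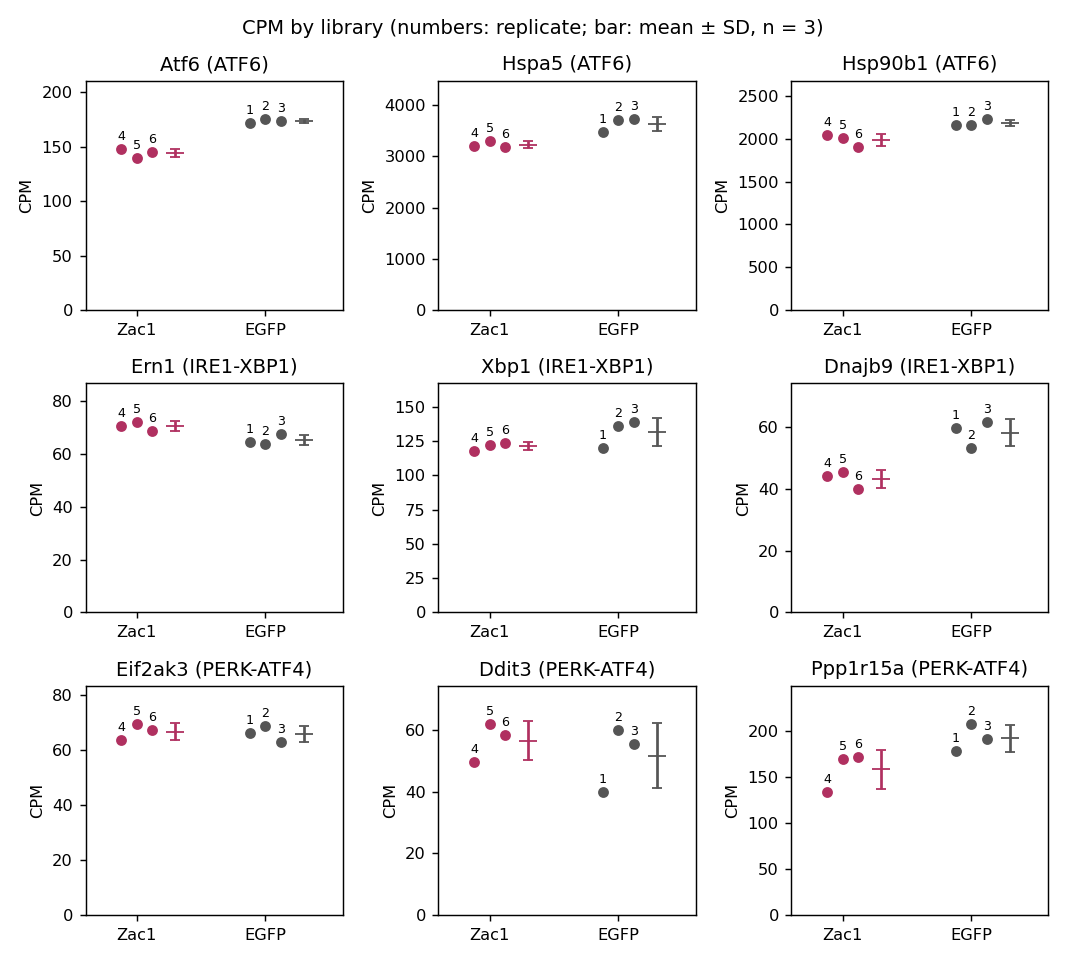
CPM of 9 members in each library, Zac1 left and EGFP right; numbers are replicates and the bars are the mean ± SD (n = 3). Atf6, Hspa5, Hsp90b1 and Dnajb9 are lower in all Zac1 libraries, Ern1 is above EGFP by a narrow gap, and Ddit3 is low in Zac1 replicate 4 and EGFP replicate 1.

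In the IRE1-XBP1 arm 1 of 9 genes passed. Dnajb9 encodes ERdj4, a co-chaperone that recruits BiP to IRE1 and is a standard target of spliced XBP1. It was at 44, 45.5 and 39.8 CPM in Zac1 replicates 4, 5 and 6, against 59.6, 53.3 and 61.8 CPM in EGFP replicates 1, 2 and 3. Every Zac1 library was below every EGFP library. The log2 fold change of -0.43 (SE 0.08, edgeR adjusted p = 0.00404) was the largest in size among the 37 members. The call held with each of the 6 libraries left out in turn, and with Zac1 replicate 4 and EGFP replicate 1 both left out (-0.43, 9.96e-07). On unscaled counts it was -0.23 with an adjusted p of 0.0521.

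Xbp1 itself did not pass. It had 118, 122 and 124 CPM in Zac1 and 120, 136 and 139 CPM in EGFP, where EGFP replicate 1 fell among the Zac1 values (log2 fold change -0.12, SE 0.06, edgeR adjusted p = 0.375). With Zac1 replicate 4 and EGFP replicate 1 left out it passed (-0.16, 0.0423). Dnajc3, which encodes P58IPK, a BiP co-chaperone, had 329, 332 and 327 CPM in Zac1 and 353, 358 and 360 CPM in EGFP. Its groups were tight and apart, yet the log2 fold change of -0.12 (SE 0.04) did not pass over all genes (edgeR adjusted p = 0.199).

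Genes of ER-associated degradation and translocation stayed near 0. Derl1, a further retrotranslocation component, had a log2 fold change of -0.05, as did Derl2. Syvn1, the ubiquitin ligase HRD1, had -0.04, and Edem1, a mannosidase-like protein that marks glycoproteins for removal, -0.0051. Sec61b, a subunit of the translocation channel, had -0.13 with overlapping groups at 17.4, 17.3 and 18.7 CPM in Zac1 and 21.4, 19.2 and 17.9 CPM in EGFP. None of these passed the test. Derl2 and Mis12, and Syvn1 and Mrpl49, overlap on opposite strands, as do Manf and Dcaf1. The strand setting of the counting is unknown, so such reads may not be fully apart. Manf also overlaps Rbm15b on its own strand. Rbm15b had 0 reads over all libraries, and how reads in that overlap were counted is not stated.

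The PERK-ATF4 arm showed no gene past the test, and its members spread in both directions. Atf4 had 312, 372 and 385 CPM in Zac1 and 324, 389 and 366 CPM in EGFP (log2 fold change -0.01, SE 0.08, edgeR adjusted p = 0.959). Ddit3, which encodes the pro-apoptotic factor CHOP, had 49.5, 61.9 and 58.3 CPM in Zac1 and 39.8, 59.8 and 55.3 CPM in EGFP (0.13, SE 0.12, edgeR adjusted p = 0.647). In both genes the replicates of a group differed more than the group means did. Ddit3 overlaps Mars on the opposite strand, which was not past the test either.

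Ppp1r15a encodes GADD34, which brings a phosphatase to eIF2 alpha and ends the translation block. It was at 133, 170 and 172 CPM in Zac1 replicates 4, 5 and 6, against 178, 208 and 192 CPM in EGFP replicates 1, 2 and 3. The groups did not overlap, though Zac1 replicate 4 was far below the other Zac1 libraries. The log2 fold change was -0.28 (SE 0.09) and the edgeR adjusted p 0.0973, the lowest among members that did not pass. DESeq2 called it (-0.29, adjusted p = 0.0405), as did edgeR without EGFP replicate 1 (-0.33, 0.0427) and with Zac1 replicate 4 and EGFP replicate 1 both left out (-0.22, 0.00102). Without Zac1 replicate 4 alone it was -0.17 and not called.

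Nupr1 lay at the other end of the arm. It had 17.4, 24.8 and 23.1 CPM in Zac1 and 14.7, 19.8 and 17.9 CPM in EGFP, with overlap through Zac1 replicate 4 (log2 fold change 0.32, SE 0.13, edgeR adjusted p = 0.247). It passed without Zac1 replicate 4 (0.46, 0.0166). Ero1l, the oxidase that recharges disulfide isomerases, had 78.8, 84.3 and 78.2 CPM in Zac1 and 86.8, 89.1 and 90.1 CPM in EGFP, without overlap (-0.14, SE 0.06, edgeR adjusted p = 0.23). Vldlr, a lipoprotein receptor induced through PERK and ATF4 in hepatocytes, had 199, 194 and 191 CPM in Zac1 and 202, 214 and 212 CPM in EGFP (-0.10, SE 0.05, edgeR adjusted p = 0.337). Both were lower in all Zac1 libraries, by margins the test did not pass.

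The amino acid genes of this arm lay close to 0. Asns, asparagine synthetase, had a log2 fold change of -0.01, Psat1 of the serine pathway -0.06, and Phgdh, its first enzyme, 0.06 with all Zac1 libraries above all EGFP libraries (349 to 359 CPM against 334 to 347). Trib3, a pseudokinase that restrains ATF4, and Chac1, which degrades glutathione, had 0.02 and 0.08 with the largest standard errors of the list (0.14 and 0.18). None passed.

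In those genes the values split by library. Chac1 was at 14.4 CPM in Zac1 replicate 4 and 22 and 25.1 CPM in Zac1 replicates 5 and 6, against 14.7 CPM in EGFP replicate 1 and 21.5 and 22.3 CPM in EGFP replicates 2 and 3. Trib3 was at 48, 65.6 and 71.7 CPM in the Zac1 libraries and 47.7, 66.8 and 68.2 CPM in the EGFP libraries. In both genes Zac1 replicate 4 and EGFP replicate 1 were the lowest, by more than the groups differed. Across the list, those were the 2 lowest libraries for 14 of 37 members and the 2 highest for 0, beside 13.7% and 12.7% of all tested genes. The 14 were 6 of the PERK-ATF4 arm (Atf4, Ddit3, Trib3, Chac1, Asns and Nupr1), 6 of the ATF6 arm (Dnajb11, Sdf2l1, Creld2, Pdia6, Calr and Herpud1), and Xbp1 and Syvn1. The 3 genes past the test could not be among them, because EGFP replicate 1 was above all Zac1 libraries in each. Their absence thus says nothing about these libraries. The labels give no batch, and what sets these libraries apart was not tested.

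**Figure D3:**
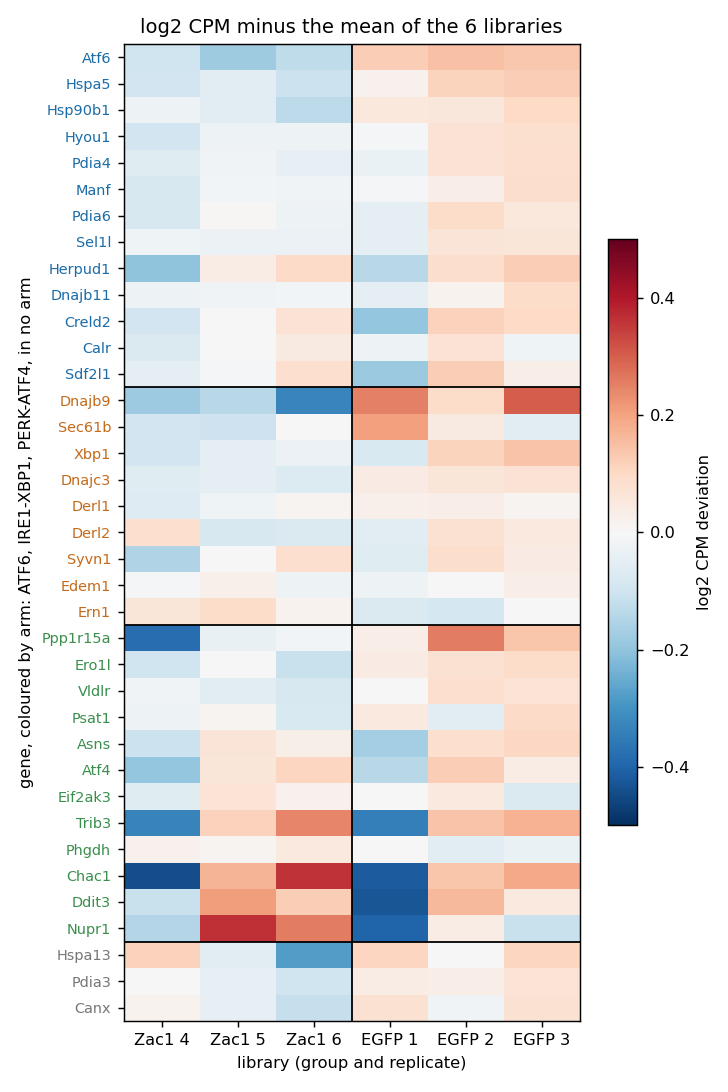
Log2 CPM of each member in each library minus its mean over the 6 libraries, by arm, with the 3 Zac1 libraries left. Atf6, Hspa5 and Dnajb9 change at the line between the groups, whereas Trib3, Chac1, Atf4 and Herpud1 are low in Zac1 replicate 4 and EGFP replicate 1.

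Among 108 other genes of these pathways, listed with earlier results of these data known, 105 could be tested. Of these 2 rose and 1 fell, again beside 3.12% and 0.668% of all tested genes, and their median log2 fold change was -0.03. Atf3, an inducible factor downstream of ATF4 and of other signals, had 96.8, 109 and 114 CPM in Zac1 and 69, 88.1 and 79.2 CPM in EGFP, apart in every library. It rose with a log2 fold change of 0.44 (SE 0.08, edgeR adjusted p = 0.00731), but was lost without EGFP replicate 3 or Zac1 replicate 6 (0.0629 and 0.0511). Creb3l1, a membrane-bound factor cut like ATF6, rose at a low level, with 5.98, 5.58 and 5.06 CPM in Zac1 and 3.53, 3.56 and 3.31 CPM in EGFP (0.67, SE 0.16, edgeR adjusted p = 0.0275). That call rested on 49 to 96 reads a library and was lost without EGFP replicate 2, EGFP replicate 3, Zac1 replicate 5 or Zac1 replicate 6 (0.0595 to 0.13). Slc7a11, the cystine transporter and an ATF4 and NRF2 target, fell by 0.21 on the log2 scale (SE 0.05, edgeR adjusted p = 0.0422), with 230, 224 and 210 CPM in Zac1 and 262, 245 and 259 CPM in EGFP. That call was lost without EGFP replicate 1, EGFP replicate 3, Zac1 replicate 5 or Zac1 replicate 6 (0.106 to 0.217).

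Further ER genes leaned down without passing. Of 16 other folding and glycosylation genes 14 were below 0, of 17 translocation and export genes 15, and of 13 other degradation genes 10, where 50.5% of all tested genes were below 0. Their medians were -0.05, -0.07 and -0.09. The lowest p in these groups were those of Serp1, a translocon-associated XBP1 target (log2 fold change -0.19, edgeR adjusted p = 0.0754), Fam8a1, a cofactor of the HRD1 complex (-0.20, 0.0973), and Dnajc10, a disulfide reductase of degradation (-0.13, 0.29). The lean in sign was not confined to these ER groups, but the other groups differed in direction. Of 12 aminoacyl-tRNA synthetases, which ATF4 induces, 10 were also below 0, but their median of -0.02 was nearer 0. Among them 0 passed, and Iars had the lowest p (log2 fold change -0.05, edgeR adjusted p = 0.681). The 17 transport and amino acid targets of ATF4 had a median of 0.03, with 8 below 0. The 15 stress factors and outputs tested had a median of 0.08, with 12 above 0. On unscaled counts 27 of the other pathway genes passed as higher and 0 as lower, beside 27.7% and 0.19% of all tested genes. Derl3, Ern2 and Fgf21 were below the count minimum.

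**Figure D4:**
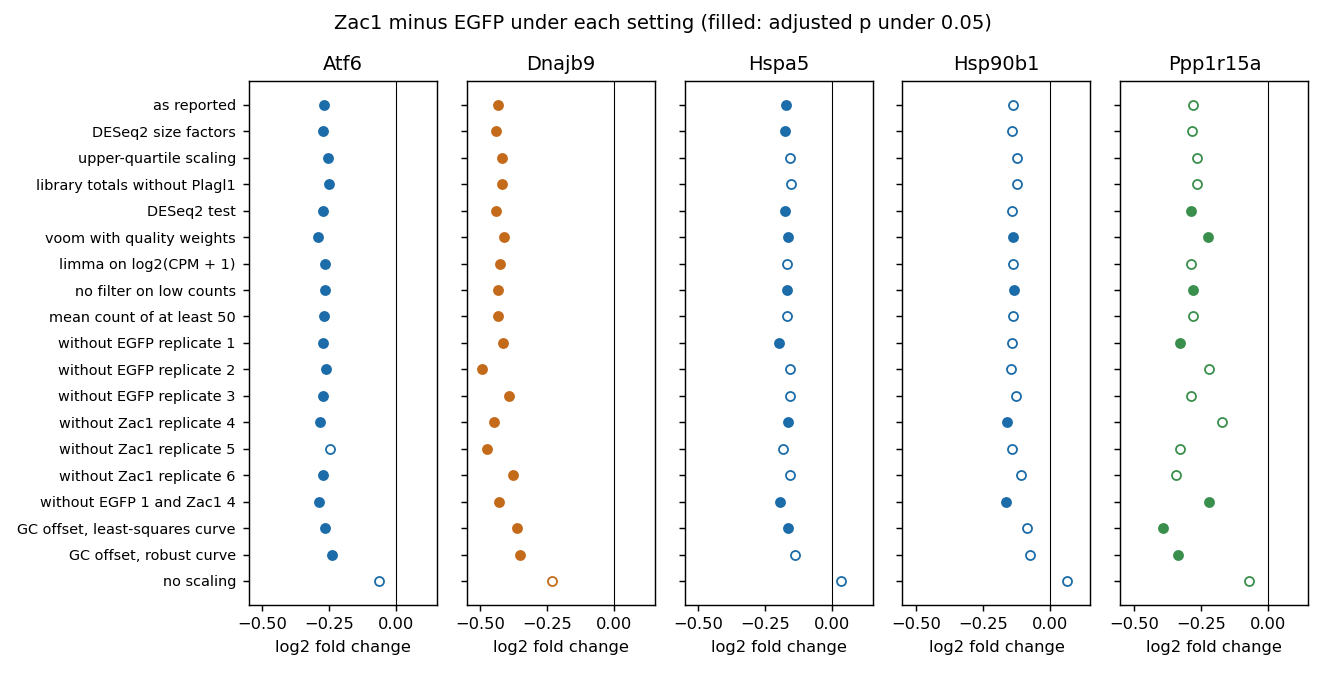
Log2 fold change, Zac1 minus EGFP, of the 3 members past the test and of Hsp90b1 and Ppp1r15a under each setting; filled points have an adjusted p under 0.05. Dnajb9 is called in 17 of the 18 alternatives, Atf6 in 16, Hspa5 in 8, Ppp1r15a in 7 and Hsp90b1 in 4, and on unscaled counts none of the 5 is.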

How the data were processed

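What the authors deposited is a single table of gene-level read counts for the 6 libraries. The tools FastQC, STAR, HTSeq and DESeq2 are named, per the submitters' processing notes; their versions, the build and the strand setting are not stated. The table is named as normalized, but its values are whole numbers with library totals of 14801240 to 18302538 and median-of-ratios factors of 0.928 to 1.16, so they were taken as unscaled counts. Per the labels' protocols the library kit was directional.

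Genes were named and placed by ID from GENCODE M21 (GRCm38), which matched 49326 of 49585 IDs. TMM-scaled counts of genes averaging 10 or more reads entered edgeR 4.0.16 (R 4.3.3; glmQLFit and glmQLFTest, two-sided, prior count 0.125), as Zac1 minus EGFP. P-values were adjusted by Benjamini-Hochberg over all of them and called below 0.05. The SE is the log2 fold change divided by the square root of F. CPM use TMM-scaled totals, and per-kilobase values use the GENCODE M21 exon length, which may not be the authors' annotation. The fit was tested on simulated counts. Replicates differed beyond sampling noise (chi-square per degree of freedom 2.29 to 8.82). Promoter windows came from RefSeq (GRCm38.p6).

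Every member is described. Values of every library are given for members past the test, the sensors, Xbp1, Atf4, Ddit3 and Hspa5, and the 4 lowest p of each arm; of other pathway genes, those past the test are named, or the lowest p of a group. The members, arms and lists were chosen with earlier results of these data known. Alternatives used DESeq2 1.42.0 and limma 3.58.1.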

Additional observations from a re-analysis of the deposited data

How the results depend on the processing

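Over 40 named genes and 18 alternatives, 591 of 720 log2 fold changes kept their direction and side of the threshold, 29 were no longer past it, 24 were newly past it and 76 changed sign. Of the 76, 74 were called neither as reported nor in the alternative. Unscaled counts, a setting added after seeing the data, as was the robust GC curve, gave 26 of them: Hspa5 0.032, Hspa13 0.059, Ero1l 0.063, Hsp90b1 0.063, Sec61b 0.072, Dnajc3 0.086, Xbp1 0.086, Vldlr 0.10, Hyou1 0.11, Pdia3 0.11, Canx 0.11, Pdia4 0.12, Manf 0.13, Pdia6 0.14, Psat1 0.14, Sel1l 0.15, Derl2 0.15, Derl1 0.16, Dnajb11 0.16, Syvn1 0.16, Herpud1 0.16, Creld2 0.19, Calr 0.19, Asns 0.19, Atf4 0.20 and Edem1 0.20. Hspa5 lost its call there and Edem1 gained one. The other 50 were of genes not called in either fit. Values that changed sign were Calr 0.0012, Edem1 0.010, Atf4 0.0031 and Asns 0.0022 with upper-quartile scaling, Calr 0.0016, Edem1 0.011, Atf4 0.0034 and Asns 0.0027 with library totals without Plagl1, Sdf2l1 -0.0094, Edem1 0.0015, Atf4 0.016 and Asns 0.0018 with voom, Sdf2l1 -0.038, Calr 0.0032 and Atf4 0.0080 without Zac1 replicate 4 and EGFP replicate 1 together, Sdf2l1 -0.12, Eif2ak3 -0.034, Trib3 -0.17, Chac1 -0.081 and Phgdh -0.095 with the least-squares GC curve, and Sdf2l1 -0.047, Edem1 0.021, Derl2 0.0080, Trib3 -0.060, Asns 0.0011 and Phgdh -0.013 with the robust one. With 1 library left out at a time, genes that changed sign ran from low to high as Sdf2l1 -0.066 to 0.082, Ddit3 -0.021 to 0.25, Trib3 -0.12 to 0.17, Chac1 -0.094 to 0.28, Creld2 -0.11 to 0.036, Calr -0.041 to 0.018, Atf4 -0.079 to 0.073, Asns -0.092 to 0.036, Edem1 -0.017 to 0.0063, Eif2ak3 -0.018 to 0.051, Herpud1 -0.12 to 0.038 and Syvn1 -0.098 to 0.016. Unscaled counts also gave 3388 changed genes, 5 members higher and 0 lower (27.7% and 0.19% of all genes), medians of 0.15 (all members), 0.14 (ATF6), 0.15 (IRE1-XBP1) and 0.21 (PERK-ATF4), and 27 other pathway genes higher and 0 lower, since library totals differ between the groups. With 1 library left out at a time, changed genes numbered 206 (without Zac1 replicate 5) to 963 (without Zac1 replicate 4), members higher 0 to 1, members lower 1 to 4 (1 without Zac1 replicate 5), other pathway genes higher 0 to 4 and lower 0 to 4. Medians then ran from -0.09 to -0.04 for all members, -0.11 to -0.04 for the ATF6 arm, -0.099 to -0.043 for the IRE1-XBP1 arm and -0.08 to 0.06 for the PERK-ATF4 arm. Without Zac1 replicate 4 and EGFP replicate 1 together, 1461 genes changed, with 1 member higher and 7 lower (7% and 4.99% of all genes), and 5 other pathway genes higher and 9 lower. Voom with quality weights gave 1297 genes, 1 member higher and 5 lower (6.57% and 4.12% of all genes), an IRE1-XBP1 median of -0.10, and 4 pathway genes higher and 7 lower. With no filter on low counts 979 genes changed, with 1 member higher and 5 lower (3.36% and 1.14% of all genes) and 3 pathway genes lower. With a mean count of at least 50 there were 241 genes and 0 pathway genes lower. The least-squares GC curve gave 961 genes, of which 35% were higher against 82.4% as reported, 7 members lower (5.15% of all genes), an IRE1-XBP1 median of -0.095, and 1 pathway gene higher and 9 lower. The robust curve gave an IRE1-XBP1 median of -0.064, with 1 pathway gene higher and 0 lower. DESeq2 called 1 pathway gene higher, and library totals without Plagl1 gave 0 lower. Where no cause is named, the cause was not tested. The fits with no filter and without both libraries shared the variance almost wholly over genes. No paired analysis was made because the labels state no pairing. The replicate numbers do not show whether libraries of the groups were prepared together. Members had 220 to 58497 reads a library. How much of each standard error comes from depth and how much from the spread between libraries was not tested.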
